A study of Mus musculus with 9 samples.

Results

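The genes described here encode the proteasome, its activators and the chaperones that assemble it. They were chosen by symbol: every gene of the deposited tables named Psma, Psmb, Psmc, Psmd, Psme or Psmg followed by digits, without Psmb8, Psmb9 and symbols ending in -ps. The rule gave 45 of the 52550 genes in the tables, on 16 chromosomes with 8 of them on chromosome 11. By role, 14 encode the core (7 alpha ring and 7 beta ring subunits), 17 the regulatory particle (6 ATPases and 11 other subunits) and 14 neither. Of these 14, 3 are tissue or immune variants of core subunits, 3 are chaperones of the base, 4 are activators and 4 are chaperones of the core. A filter on low values (a deposited TPM, the transcript level per length and library, that reached 1 or more in 3 or more of the 9 libraries) kept 43 of the 45, among 17080 genes in all. The genes left out by it were Psma8 and Psmb11.

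The proteasome degrades proteins that carry a chain of ubiquitin. Its core is a barrel of stacked rings, in which outer rings of alpha subunits gate the entrance and inner rings of beta subunits hold the proteolytic sites. The regulatory particle caps the barrel, binds ubiquitin, removes the chain and threads the substrate in through a ring of ATPases, while other activators open the gate without ubiquitin. In brain, ischemia is known to load cells with ubiquitinated and aggregated protein, and the transcription factor Nfe2l1 is known to raise proteasome genes together when the proteasome is inhibited.

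The 9 libraries, 3 in each of 3 groups, were made from cerebral cortex of C57BL/6N males aged 9 to 12 weeks. The knockdown group received a locked nucleic acid antisense oligo against eRNA_06347, an RNA transcribed from an enhancer, through the lateral ventricles, followed by 1 h of middle cerebral artery occlusion with a filament and 6 h of reperfusion. The control oligo group received a negative control oligo and the same occlusion and reperfusion. The sham group had neck surgery without the filament, with no oligo named for it, and its libraries belong to a data set that the same laboratory had made before. Cortex on the infarcted side was taken, total RNA was isolated, and poly(A) libraries were made for both occlusion groups. How the sham libraries were made is not given in the sources used here, so occlusion, oligo delivery and data set cannot be told apart in any comparison with sham. The labels give 3 mice a group and do not say whether each library holds 1 mouse, so p-values measure only the spread between these libraries, which may be technical.

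Across all genes, the sham libraries stood apart from the others. Nuclear protein-coding genes took 57.0 to 63.9% of the deposited TPM in the knockdown libraries, 54.7 to 61.0% in the control oligo libraries and 30.6 to 34.2% in the sham libraries. Small structural RNAs took at most 0.351% in the knockdown and control oligo libraries and 46.3 to 52.1% in sham, and mitochondrial genes took 22.6 to 28.9% in the knockdown and control oligo libraries and 0.277 to 0.577% in sham. Levels are therefore given as scaled TPM, the gene's TPM over all of its transcripts divided by a factor per library from the median ratio to all 9 libraries. Depth, as bases assigned to transcripts, was 4.40 to 4.83 Gb in knockdown, 4.48 to 4.92 Gb in control oligo and 2.70 to 2.88 Gb in sham libraries. Summed markers of neurons lay between 2603 and 3860 scaled TPM in all 9 libraries. The level of eRNA_06347 itself was not analysed here, so the knockdown rests on the labels.

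Promoters are shown for 6 genes, picked for a result below or for holding a motif. They comprise the beta subunit gene with the largest change against sham (Psmb3), a beta subunit gene with an antioxidant-type motif (Psmb6), an ATPase gene and a ubiquitin receptor gene that were higher than in sham (Psmc2 and Psmd4), a lid subunit gene with a pair of motifs (Psmd12), and a base subunit gene that did not pass the test against sham (Psmd2). Each run is 300 bases, 250 before and 50 after the start, 5′ to 3′ on the gene's strand, from RefSeq on GRCm38.p6. Capitals mark matches, on either strand, to TGACNNNGC (the core of the antioxidant response element), CCGGAAG (a motif of the ETS type) or CCAAT. Each promoter shown holds a match. Promoters of Psmb4, Psmc4 and Psmc5, which also rose against sham, held none and are not shown. Psmc2 had another promoter, which is not shown either.
Psmb3 (chr11:97703184-97703483, plus strand): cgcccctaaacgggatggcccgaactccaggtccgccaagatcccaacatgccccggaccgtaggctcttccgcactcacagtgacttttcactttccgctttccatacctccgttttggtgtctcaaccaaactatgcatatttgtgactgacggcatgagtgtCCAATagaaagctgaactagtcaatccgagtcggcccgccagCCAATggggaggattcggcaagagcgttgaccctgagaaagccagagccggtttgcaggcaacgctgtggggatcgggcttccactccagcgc
Psmb6 (chr11:70525107-70525406, plus strand): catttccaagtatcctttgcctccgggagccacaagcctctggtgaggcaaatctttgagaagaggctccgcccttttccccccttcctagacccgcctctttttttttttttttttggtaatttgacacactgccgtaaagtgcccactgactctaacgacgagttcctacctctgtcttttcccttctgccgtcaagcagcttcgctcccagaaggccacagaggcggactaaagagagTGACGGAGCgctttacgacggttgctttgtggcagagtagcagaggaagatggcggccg
Psmc2 (chr5:21785025-21785324, plus strand): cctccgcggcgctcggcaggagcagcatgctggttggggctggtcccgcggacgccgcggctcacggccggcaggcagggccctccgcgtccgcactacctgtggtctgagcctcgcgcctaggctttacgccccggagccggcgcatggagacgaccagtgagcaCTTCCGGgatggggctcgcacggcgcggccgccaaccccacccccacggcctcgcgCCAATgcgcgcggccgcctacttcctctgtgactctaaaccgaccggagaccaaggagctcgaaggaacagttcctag
Psmd4 (chr3:95042565-95042864, minus strand): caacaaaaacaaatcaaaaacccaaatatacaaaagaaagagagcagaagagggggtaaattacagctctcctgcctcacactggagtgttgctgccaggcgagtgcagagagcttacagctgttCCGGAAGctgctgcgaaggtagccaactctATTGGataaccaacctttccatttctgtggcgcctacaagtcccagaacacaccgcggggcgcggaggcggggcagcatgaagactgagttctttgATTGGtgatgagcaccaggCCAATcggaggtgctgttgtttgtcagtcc
Psmd12 (chr11:107479278-107479577, plus strand): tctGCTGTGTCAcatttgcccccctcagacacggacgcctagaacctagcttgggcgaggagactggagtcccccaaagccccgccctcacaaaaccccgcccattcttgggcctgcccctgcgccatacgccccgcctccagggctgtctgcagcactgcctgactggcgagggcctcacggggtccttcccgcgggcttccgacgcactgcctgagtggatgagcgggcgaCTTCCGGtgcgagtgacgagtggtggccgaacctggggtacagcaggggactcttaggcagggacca
Psmd2 (chr16:20651402-20651701, plus strand): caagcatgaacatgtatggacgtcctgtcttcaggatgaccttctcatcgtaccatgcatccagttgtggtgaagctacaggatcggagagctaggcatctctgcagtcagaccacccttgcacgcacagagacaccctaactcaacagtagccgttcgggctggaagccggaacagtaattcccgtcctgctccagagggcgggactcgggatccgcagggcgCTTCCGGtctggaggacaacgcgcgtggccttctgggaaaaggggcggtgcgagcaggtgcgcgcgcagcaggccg

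The RefSeq table held 40 promoters for 37 of the 45 genes. CCGGAAG lay in a promoter of 9 of 14 regulatory particle genes (64.3%), of 1 of 11 core genes (9.09%) and of 14 of all 37 (37.8%), beside 9.93% of the 27025 gene symbols in the table and 8.86% of its 32851 promoters. CCAAT lay in a promoter of 6 of the 11 core genes (54.5%), 4 of the 14 regulatory particle genes (28.6%) and 13 of all 37 (35.1%), beside 41.1% of all symbols and 37.4% of all promoters. TGACNNNGC lay in 6 of the 37 (16.2%), beside 14% of all symbols and 12.4% of all promoters, and those 6 were Psmb5, Psmb6, Psmc6, Psmd12, Psmd9 and Psme4. Matches shared bases only in Psmd14, where CCAAT lay on both strands, and a gene or symbol was counted once if any of its promoters held the motif. Among the regulatory particle genes with CCGGAAG were genes that rose against sham (Psmc2, Psmd4) and Psmd2, which did not pass the test. The match to these letters is a description of the sequence.

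Levels spanned a wide range between roles. In the knockdown group the highest gene was Psmc5 (ENSMUSG00000020708, chr11:106256154-106263120), an ATPase of the base, at 242 ± 32.2 scaled TPM (SD, n = 3), and the lowest of the 43 was Psmg4 (ENSMUSG00000071451, chr13:34162964-34178173), a core chaperone, at 8.55 ± 1.04. In the control oligo group Psmc5 averaged 235 ± 22 and Psmg4 8.41 ± 2.87, and in the sham group they averaged 142 ± 6.04 and 6.76 ± 0.404. TPM is a value per transcript length, so these levels can be set beside each other. Core and regulatory particle genes lay between 31.3 and 242 scaled TPM as group means, while the 4 core chaperones and 3 base chaperones lay between 6.76 and 22.6. Summed over the 43 genes, the level was 4311 ± 564 in knockdown, 4055 ± 154 in control oligo and 2857 ± 55.4 in sham libraries (SD, n = 3 each). As a share of the TPM of nuclear protein-coding genes, that sum was 0.839 ± 0.0840% in knockdown, 0.810 ± 0.0194% in control oligo and 0.629 ± 0.00478% in sham libraries. The sums of both occlusion groups lay above every sham library on either scale. In bulk tissue, a change in the share of a cell type and a change in RNA per cell cannot be told apart.

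**Figure D1:**
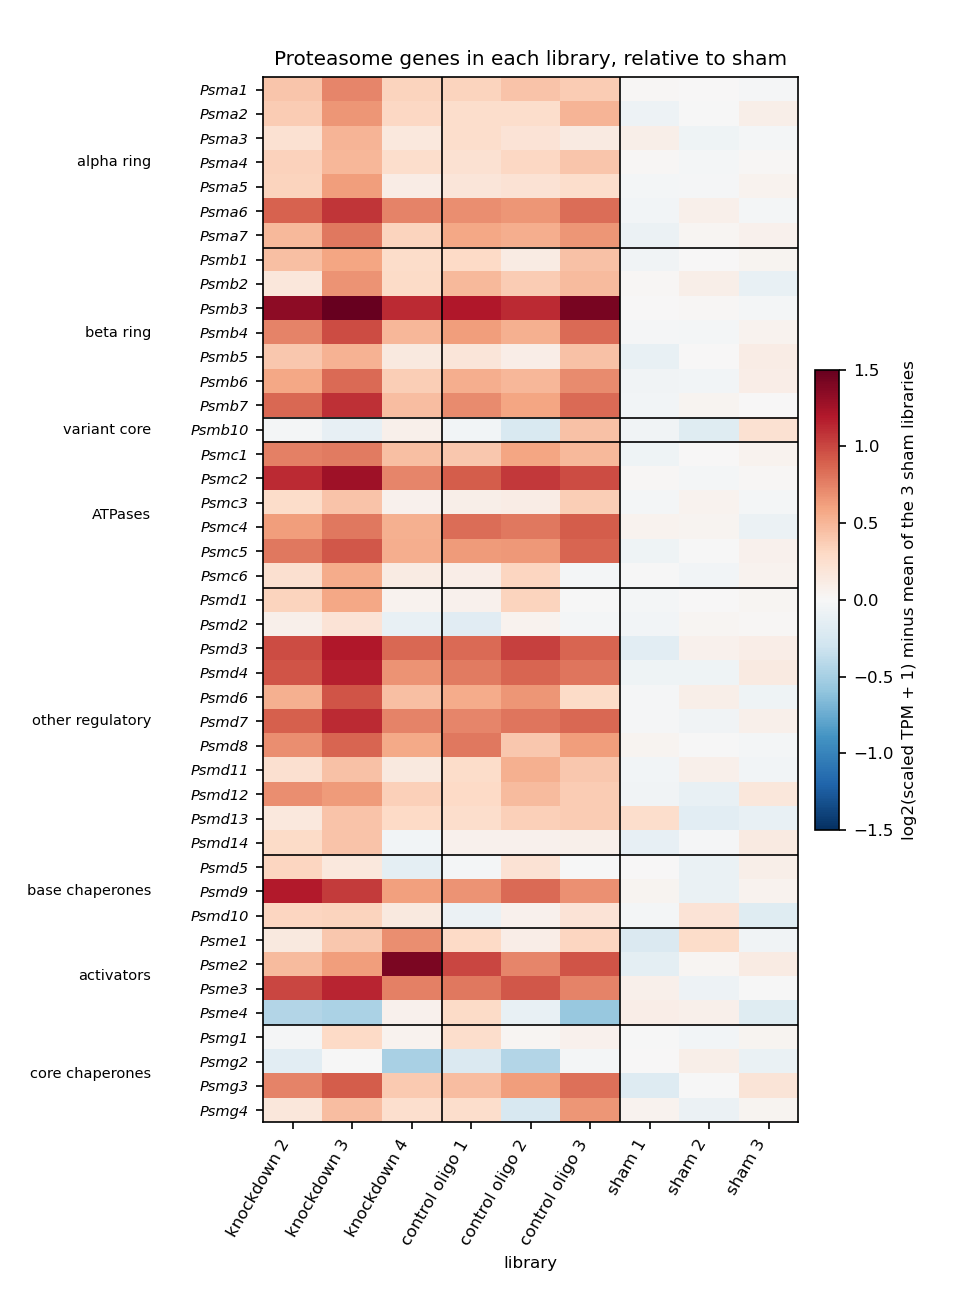
Level of the 43 kept genes (rows, grouped by role) in each of the 9 libraries (columns), as log2(scaled TPM + 1) minus the mean of the 3 sham libraries, with red above and blue below sham. Most rows are red in all 6 occlusion libraries, Psmb3 most deeply, while Psmd2, Psmb10, Psmg2 and Psme4 stay pale or turn blue.

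The first question of the design is whether the knockdown changed these genes relative to the control oligo. None of the 43 passed the test in this comparison (limma, adjusted p under 0.05 over all 17080 genes), and none had an unadjusted p under 0.05. Across all genes, 3 of 17080 passed (0.0176%) and 405 had an unadjusted p under 0.05. Log2 changes of the 43 had a median of 0.10, and ran between -0.19 and 0.21, with 34 above and 9 below 0. The median was 0.10 for core genes and 0.11 for regulatory particle genes. It was -0.01 for the core and 0.0059 for the regulatory particle without knockdown library 3, and 0.19 and 0.21 for them without knockdown library 4. For all genes kept the median was 0.01, a value that the scaling holds near 0. No proteasome gene had its 3 knockdown libraries wholly above or wholly below its 3 control oligo libraries. Of all genes, 3.49% lay wholly above, and the share wholly below is not given here.

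The 5 genes with the smallest p-values there show how the groups lay. Psmc4, an ATPase of the base (ENSMUSG00000030603, chr7:28041707-28050101), had 125, 139.7 and 116 scaled TPM in knockdown libraries 2, 3 and 4, 144, 139.7 and 151 in control oligo libraries 1, 2 and 3, and 82.8, 82.5 and 75.3 in sham libraries 1, 2 and 3. Its knockdown libraries lay at or below the control oligo libraries, with knockdown library 3 level with control oligo library 2, and both groups lay above sham. The change between knockdown and control oligo was -0.19 on the log2 scale (95% interval -0.46 to 0.08, unadjusted p = 0.131, limma). Psmd10, known as gankyrin and a chaperone of the base (ENSMUSG00000031429, chrX:140948429-140956728), had 16.5, 16.5 and 14.4 scaled TPM in knockdown libraries 2, 3 and 4, 12.1, 13.6 and 15.1 in control oligo libraries 1, 2 and 3, and 12.7, 15.1 and 11.3 in sham libraries 1, 2 and 3. Its groups overlapped, with the highest values in knockdown libraries 2 and 3 and the lowest in sham library 3. The change between knockdown and control oligo was 0.21 (95% interval -0.15 to 0.56, limma unadjusted p = 0.203).

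Psmd12, a scaffold subunit of the lid (ENSMUSG00000020720, chr11:107479484-107504362), had 92.3, 88.3 and 72.8 scaled TPM in knockdown libraries 2, 3 and 4, 69.9, 79.0 and 74.1 in control oligo libraries 1, 2 and 3, and 54.3, 52.2 and 63.5 in sham libraries 1, 2 and 3. Knockdown library 4 lay among the control oligo libraries, the other knockdown libraries lay above them, and sham was lowest throughout. The change between knockdown and control oligo was 0.18 (95% interval -0.13 to 0.48, limma unadjusted p = 0.211). Psmc1, another ATPase of the base (ENSMUSG00000021178, chr12:100110154-100123405), had 209, 212 and 169.5 scaled TPM in knockdown libraries 2, 3 and 4, 164, 186 and 174 in control oligo libraries 1, 2 and 3, and 118, 124 and 128 in sham libraries 1, 2 and 3. The order was the same: knockdown library 4 among the control oligo libraries and the others above. Its change between knockdown and control oligo was 0.17 (95% interval -0.15 to 0.48, limma unadjusted p = 0.246). Psma6, an alpha ring subunit described further on, was the other of the 5, with a change of 0.17 (95% interval -0.14 to 0.47, limma unadjusted p = 0.231). All 5 had an adjusted p of 1.

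The second question is how occluded cortex differed from sham. Relative to sham, 24 of the 43 genes rose in the knockdown group and 0 fell, and 25 rose in the control oligo group and 0 fell (limma, adjusted p under 0.05). Both comparisons use the same 3 sham libraries. Over all genes kept, 22.7% rose and 27.1% fell in the knockdown group, and 26.1% rose and 29.2% fell in the control oligo group. The median log2 change of the 43 genes was 0.45 in the knockdown group and 0.39 in the control oligo group, beside 0.01 and 0.01 for all genes. The scaling itself holds the median of all genes near 0. The 3 knockdown libraries lay wholly above the 3 sham libraries for 33 of the 43 genes, beside 29.8% of all genes, and the 3 control oligo libraries did so for 29 of the 43, beside 30.8%. No gene of the 43 had either occlusion group wholly below sham, but the share of all genes wholly below is not given here, so this has no background.

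Without scaling, the median of all genes itself moved to 0.61 in the knockdown group and 0.56 in the control oligo group, and 41 genes of the 43 in knockdown and 42 in control oligo then rose, beside 52.7% and 52.6% of all genes. The median of the 43 was then 1.16 in the knockdown group and 1.04 in the control oligo group. Relative to the nuclear protein-coding TPM, the median of all genes was -0.15 in the knockdown group and -0.12 in the control oligo group, and 20 of the 43 rose in knockdown and 19 in control oligo. On that scale the median of the 43 was 0.28 in knockdown and 0.25 in control oligo. When only transcripts annotated as protein-coding were summed, an alternative chosen after seeing the data, 27 of the 43 rose in knockdown, beside 21.0% of all genes, and 28 in control oligo, beside 23.3%. Without scaling, all-gene calls split into 9007 higher and 2143 lower in the knockdown group, and into 8990 higher and 2178 lower in the control oligo group. Relative to the nuclear protein-coding TPM they split into 2992 higher and 5645 lower in knockdown, and into 3533 higher and 5649 lower in control oligo.

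**Figure D2:**
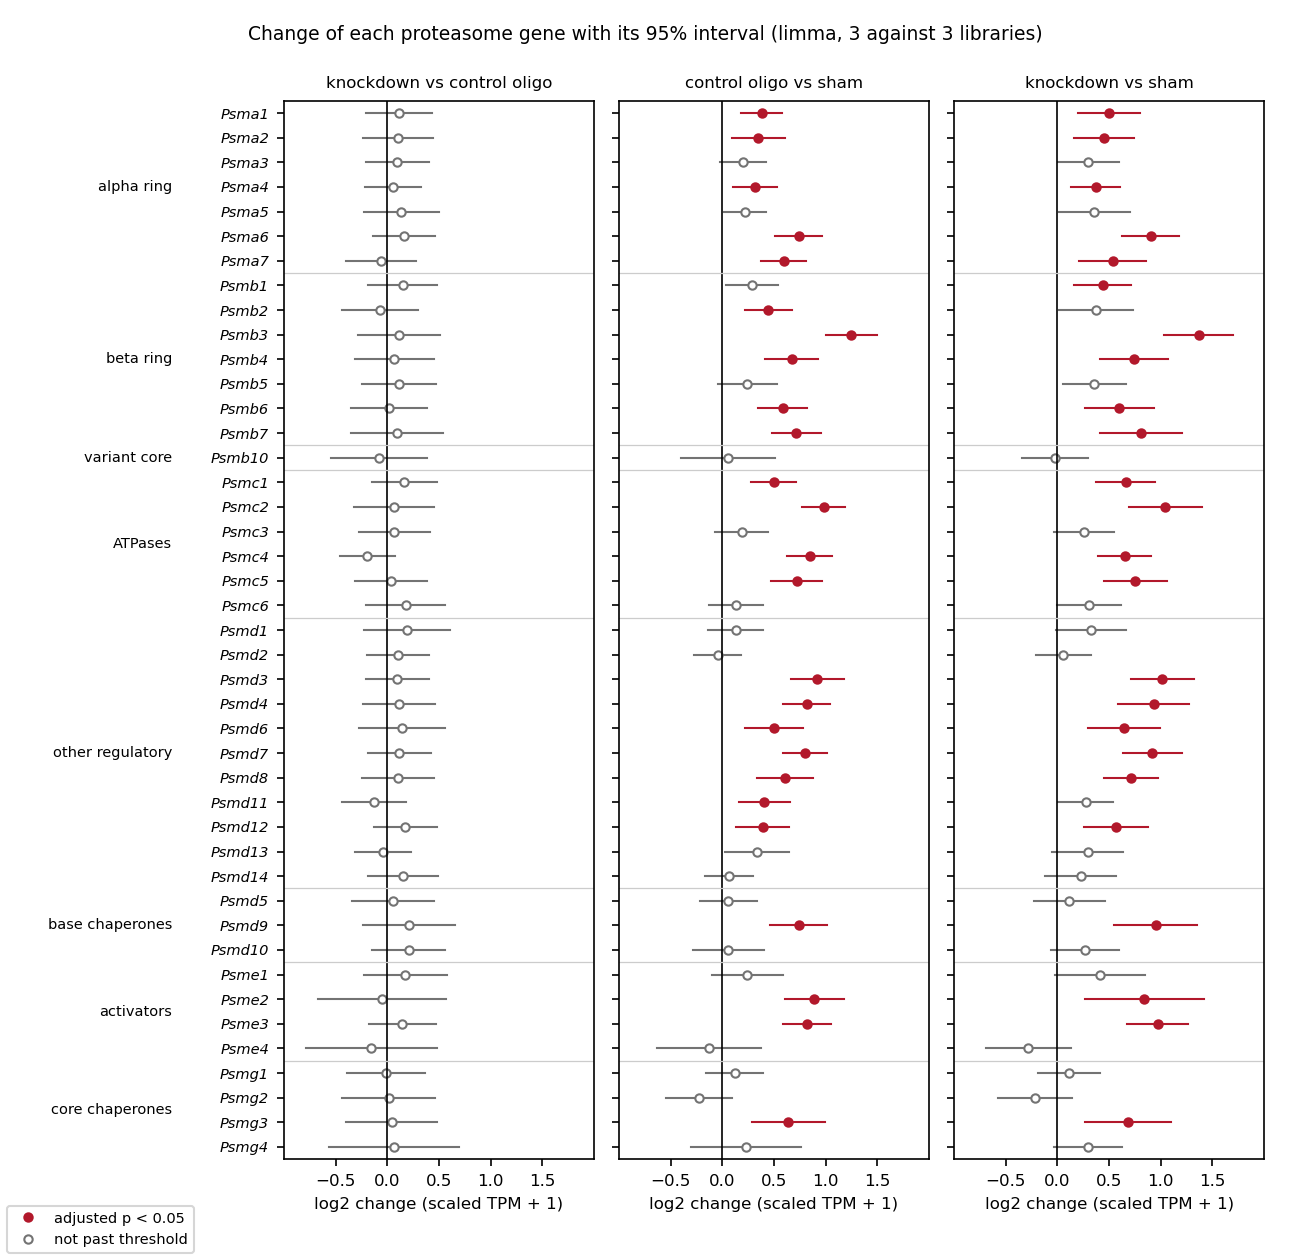
Log2 change of each kept gene (point) with its 95% interval (line) from limma, for knockdown vs control oligo (left), control oligo vs sham (middle) and knockdown vs sham (right), grouped by role. Filled red points passed an adjusted p of 0.05; none did so on the left, 25 did in the middle and 24 on the right, all to the right of 0.

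Of the 7 alpha ring genes, 5 rose in each occlusion group, with median changes of 0.45 in knockdown and 0.35 in control oligo. Beside this and the counts by role that follow, 22.7% of all genes kept rose in knockdown and 26.1% in control oligo. Psma6 (ENSMUSG00000021024, chr12:55384222-55418454) had the largest change of this ring, with 175, 199 and 159 scaled TPM in knockdown libraries 2, 3 and 4, 154, 150.3 and 169.9 in control oligo libraries 1, 2 and 3, and 91.4, 99.2 and 92.5 in sham libraries 1, 2 and 3. All 6 occlusion libraries lay above the highest sham library by a wide margin. Its log2 change against sham was 0.90 (SE 0.12, adjusted p = 0.000774) in the knockdown group and 0.74 (SE 0.10, adjusted p = 0.000593) in the control oligo group (limma). Psma3 (ENSMUSG00000060073, chr12:70974621-70996347) had the smallest change, with 52.9, 64.6 and 50.3 scaled TPM in knockdown libraries 2, 3 and 4, 54.2, 51.8 and 49.6 in control oligo libraries 1, 2 and 3, and 48.0, 42.9 and 44.1 in sham libraries 1, 2 and 3. Both occlusion groups lay just above sham, with control oligo library 3 close to sham library 1. Its change was 0.30 (SE 0.12, adjusted p = 0.0807) in the knockdown group and 0.20 (SE 0.09, adjusted p = 0.109) in the control oligo group, and neither passed.

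Of the 7 beta ring genes, 5 rose in each occlusion group, with median changes of 0.60 in knockdown and 0.58 in control oligo. Psmb3 (ENSMUSG00000069744, chr11:97703399-97713500), a structural beta subunit without proteolytic activity, had the largest change of all 43 genes, with 181, 222 and 156 scaled TPM in knockdown libraries 2, 3 and 4, 165, 156 and 192 in control oligo libraries 1, 2 and 3, and 71.3, 72.1 and 69.7 in sham libraries 1, 2 and 3. The sham libraries were within a few scaled TPM of each other, and every occlusion library lay far above them. It was 2.58-fold higher in the knockdown group and 2.38-fold higher in the control oligo group than in sham on the scale of TPM + 1. Its log2 change was 1.36 (SE 0.14, adjusted p = 0.000304) in knockdown and 1.25 (SE 0.11, adjusted p = 9.08e-05) in control oligo. Its promoter, printed above, held CCAAT at a pair of positions. Psmb5 (ENSMUSG00000022193, chr14:54614120-54617995), the subunit with the chymotrypsin-like site that proteasome inhibitor drugs target, had the smallest change of this ring, with 117, 126 and 97.3 scaled TPM in knockdown libraries 2, 3 and 4, 99.9, 94.5 and 119 in control oligo libraries 1, 2 and 3, and 81.3, 87.8 and 94.7 in sham libraries 1, 2 and 3. Control oligo library 2 lay below sham library 3, so those groups overlapped, while all knockdown libraries lay above sham. Its change was 0.36 (SE 0.13, adjusted p = 0.0537) in the knockdown group and 0.24 (SE 0.12, adjusted p = 0.123) in the control oligo group. The other catalytic subunits rose. Psmb6 (ENSMUSG00000018286, chr11:70525367-70527858), with the caspase-like site, had a change of 0.60 (SE 0.14, adjusted p = 0.0114) in knockdown and 0.58 (SE 0.10, adjusted p = 0.00239) in control oligo. Psmb7 (ENSMUSG00000026750, chr2:38588036-38644087), with the trypsin-like site, had 0.81 (SE 0.17, adjusted p = 0.00663) in knockdown and 0.72 (SE 0.10, adjusted p = 0.000861) in control oligo, and both were named for their catalytic role after their values were seen.

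Of the 6 ATPases of the base, 4 rose in each occlusion group (Psmc1, Psmc2, Psmc4 and Psmc5), with median changes of 0.66 in knockdown and 0.61 in control oligo. Psmc2 (ENSMUSG00000028932, chr5:21785283-21803787) had the largest change, with 133, 148 and 101.3 scaled TPM in knockdown libraries 2, 3 and 4, 114, 127 and 119.6 in control oligo libraries 1, 2 and 3, and 61.1, 59.1 and 61.2 in sham libraries 1, 2 and 3. The 3 sham libraries lay close together, and knockdown library 4, the lowest of the occlusion libraries, was still far above them. Its change was 1.04 (SE 0.15, adjusted p = 0.00126) in the knockdown group and 0.98 (SE 0.09, adjusted p = 0.000122) in the control oligo group. Psmc6 (ENSMUSG00000021832, chr14:45329824-45349071) had the smallest change of the ATPases in the control oligo group, with 104, 130.5 and 96.7 scaled TPM in knockdown libraries 2, 3 and 4, 94.5, 110.5 and 86.9 in control oligo libraries 1, 2 and 3, and 88.0, 85.8 and 91.4 in sham libraries 1, 2 and 3. Control oligo library 3 lay below sham library 1, and the knockdown libraries lay above sham. Its change was 0.31 (SE 0.13, adjusted p = 0.0898) in knockdown and 0.13 (SE 0.11, adjusted p = 0.355) in control oligo. Psmc3 (ENSMUSG00000002102, chr2:91054009-91066369) had the smallest change in the knockdown group, with 179, 198 and 155 scaled TPM in knockdown libraries 2, 3 and 4, 157, 159 and 191 in control oligo libraries 1, 2 and 3, and 144, 153 and 145 in sham libraries 1, 2 and 3. Its occlusion libraries lay above sham by little, and its change was 0.26 (SE 0.12, adjusted p = 0.115) in knockdown and 0.19 (SE 0.11, adjusted p = 0.177) in control oligo.

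Among the 11 other subunits of the regulatory particle, 6 rose in the knockdown group and 7 in the control oligo group, with median changes of 0.57 in knockdown and 0.41 in control oligo. Psmd3 (ENSMUSG00000017221, chr11:98682554-98695979), a scaffold subunit of the lid, had the largest change, with 99.4, 116 and 91.3 scaled TPM in knockdown libraries 2, 3 and 4, 90.6, 103 and 91.7 in control oligo libraries 1, 2 and 3, and 44.5, 52.0 and 53.3 in sham libraries 1, 2 and 3. Its 3 sham libraries lay near a common level, and all 6 occlusion libraries lay well above them. Its change was 1.02 (SE 0.13, adjusted p = 0.000727) in the knockdown group and 0.92 (SE 0.11, adjusted p = 0.000406) in the control oligo group. Psmd4 (ENSMUSG00000005625, chr3:95032694-95042614), a ubiquitin receptor, rose by 0.93 (SE 0.15, adjusted p = 0.00192) in knockdown and 0.82 (SE 0.10, adjusted p = 0.000399) in control oligo, named after its values were seen. Psmd7 (ENSMUSG00000039067, chr8:107580381-107588464), the partner of the deubiquitinase in the lid and named likewise, rose by 0.92 (SE 0.12, adjusted p = 0.000903) in knockdown and 0.80 (SE 0.09, adjusted p = 0.000329) in control oligo. Psmd2 (ENSMUSG00000006998, chr16:20651652-20663414), a large scaffold of the base that binds ubiquitin-like domains, had the smallest change, with 123, 134.6 and 108 scaled TPM in knockdown libraries 2, 3 and 4, 104, 121 and 115 in control oligo libraries 1, 2 and 3, and 113, 119 and 118 in sham libraries 1, 2 and 3. Its groups overlapped throughout, and its change was 0.06 (SE 0.11, adjusted p = 0.691) in the knockdown group and -0.05 (SE 0.10, adjusted p = 0.711) in the control oligo group. The deubiquitinase of the lid, Psmd14 (ENSMUSG00000026914, chr2:61711694-61800376), had 0.22 (SE 0.15, adjusted p = 0.237) in knockdown and 0.07 (SE 0.10, adjusted p = 0.59) in control oligo. The other large scaffold of the base, Psmd1 (ENSMUSG00000026229, chr1:86064387-86139151), had 0.32 (SE 0.14, adjusted p = 0.101) in knockdown and 0.13 (SE 0.11, adjusted p = 0.362) in control oligo, and these genes too were named for their roles after their values were seen. Among these 11 the change ran between 0.06 and 1.02 in the knockdown group and between -0.05 and 0.92 in the control oligo group.

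**Figure D3:**
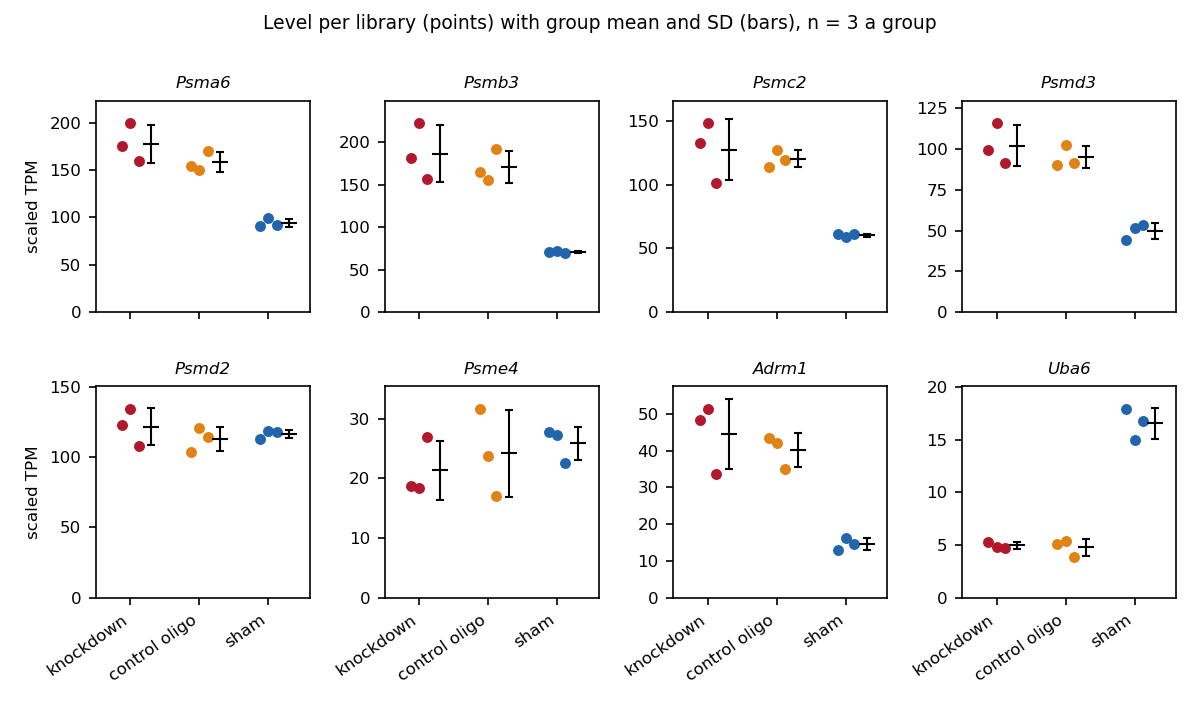
Scaled TPM in each library (points) with group mean and SD (bars, n = 3) for 6 proteasome genes and for Adrm1 and Uba6, with the knockdown, control oligo and sham groups from left to right. Psma6, Psmb3, Psmc2, Psmd3 and Adrm1 lay above sham in every occlusion library, Uba6 lay below sham in every one, and the groups of Psmd2 and Psme4 overlapped.

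Of the assembly chaperones, 1 of the 3 for the base and 1 of the 4 for the core rose in each occlusion group. Over all genes kept, 22.7% rose in knockdown and 26.1% in control oligo. The base chaperone that rose was Psmd9, and the others did not pass on gene sums. Psmd9 (ENSMUSG00000029440, chr5:123169413-123250131), known to hold ATPases before the base is complete, had 23.2, 21.04 and 15.2 scaled TPM in knockdown libraries 2, 3 and 4, 16.0, 18.2 and 16.1 in control oligo libraries 1, 2 and 3, and 9.96, 8.95 and 10.0 in sham libraries 1, 2 and 3. Every occlusion library lay above the sham libraries, and its change was 0.95 (SE 0.17, adjusted p = 0.00346) in the knockdown group and 0.74 (SE 0.12, adjusted p = 0.00153) in the control oligo group. Psmd10 had the smallest change of this class in the control oligo group, 0.06 (SE 0.15, adjusted p = 0.751), and Psmd5 the smallest in the knockdown group. Psmd5 (ENSMUSG00000026869, chr2:34849734-34874968) had 26.1, 23.1 and 18.5 scaled TPM in knockdown libraries 2, 3 and 4, 20.1, 24.1 and 20.5 in control oligo libraries 1, 2 and 3, and 20.7, 19.1 and 22.01 in sham libraries 1, 2 and 3. Its groups overlapped, and its change was 0.11 (SE 0.15, adjusted p = 0.537) in knockdown and 0.06 (SE 0.12, adjusted p = 0.688) in control oligo. Over coding transcripts alone, Psmd5 passed as higher than sham in both groups, as described further on.

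Of the 4 core chaperones, which help the alpha ring form, Psmg3 alone rose in each group. Psmg3 (ENSMUSG00000029551, chr5:139823592-139826885) had 21.6, 24.3 and 16.7 scaled TPM in knockdown libraries 2, 3 and 4, 17.6, 19.8 and 22.8 in control oligo libraries 1, 2 and 3, and 10.8, 12.4 and 14.4 in sham libraries 1, 2 and 3. Its lowest occlusion value, in knockdown library 4, lay above the highest sham value. Its change was 0.68 (SE 0.17, adjusted p = 0.0154) in knockdown and 0.64 (SE 0.15, adjusted p = 0.00886) in control oligo. Psmg2 (ENSMUSG00000024537, chr18:67641599-67654162), the partner of Psmg1 in the same class, had 16.2, 18.1 and 12.7 scaled TPM in knockdown libraries 2, 3 and 4, 15.5, 13.1 and 17.7 in control oligo libraries 1, 2 and 3, and 18.1, 19.4 and 16.9 in sham libraries 1, 2 and 3. Its sham libraries lay among the highest of the 9, with overlap, and its change was -0.21 (SE 0.15, adjusted p = 0.267) in knockdown and -0.23 (SE 0.14, adjusted p = 0.19) in control oligo. Relative to the nuclear protein-coding TPM it was the gene of the 43 that fell in control oligo, while without scaling its change was 0.40 there. Pomp, a core chaperone outside the symbol rule, rose by 0.47 (SE 0.13, adjusted p = 0.0204) in knockdown and 0.48 (SE 0.11, adjusted p = 0.00827) in control oligo.

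Of the 4 activators, Psme2 and Psme3 rose in each group. Psme2 (ENSMUSG00000079197, chr14:55587441-55591113), a subunit of the interferon-inducible PA28 ring, had 26.99, 30.1 and 52.4 scaled TPM in knockdown libraries 2, 3 and 4, 39.1, 32.3 and 37.8 in control oligo libraries 1, 2 and 3, and 17.1, 19.5 and 20.9 in sham libraries 1, 2 and 3. Knockdown library 4 was far above the other knockdown libraries, while the control oligo libraries lay closer together, and every library of both groups lay above sham. A protein-coding gene, Psme2b, matches Psme2 at 99.4% over 794 bases, so reads may be shared between them. Its change was 0.84 (SE 0.24, adjusted p = 0.0255) in the knockdown group and 0.89 (SE 0.12, adjusted p = 0.000798) in the control oligo group. Psme3 (ENSMUSG00000078652, chr11:101316213-101323537), which forms the nuclear PA28 gamma ring, had 88.2, 97.6 and 74.3 scaled TPM in knockdown libraries 2, 3 and 4, 76.2, 83.8 and 73.4 in control oligo libraries 1, 2 and 3, and 46.1, 41.3 and 43.4 in sham libraries 1, 2 and 3. All 6 occlusion libraries lay clearly above sham. Its change was 0.97 (SE 0.13, adjusted p = 0.000807) in knockdown and 0.82 (SE 0.10, adjusted p = 0.000409) in control oligo. Psme4 (ENSMUSG00000040850, chr11:30771726-30880361), the large PA200 activator, had 18.7, 18.3 and 26.99 scaled TPM in knockdown libraries 2, 3 and 4, 31.6, 23.8 and 17.1 in control oligo libraries 1, 2 and 3, and 27.7, 27.3 and 22.6 in sham libraries 1, 2 and 3. Its groups overlapped with wide spread in both occlusion groups, and its change was -0.28 (SE 0.17, adjusted p = 0.212) in knockdown and -0.13 (SE 0.21, adjusted p = 0.629) in control oligo. Without knockdown library 4, Psme4 passed as lower in the knockdown group than in sham, at a log2 change of -0.46.

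Of the 3 variants of core subunits, only Psmb10 passed the filter. On its scaled gene sum it passed the test in none of the 3 comparisons, while it passed as higher than sham without scaling, at 0.68 in knockdown and 0.70 in control oligo, and over coding transcripts alone. Psmb10 (ENSMUSG00000031897, chr8:105935735-105938444), the inducible trypsin-like subunit of the immunoproteasome, had 31.5, 29.2 and 34.0 scaled TPM in knockdown libraries 2, 3 and 4, 31.2, 27.2 and 43.9 in control oligo libraries 1, 2 and 3, and 30.9, 28.1 and 37.8 in sham libraries 1, 2 and 3. All groups overlapped, and its change was -0.08 (SE 0.19, adjusted p = 1) between knockdown and control oligo, -0.02 (SE 0.14, adjusted p = 0.897) between knockdown and sham and 0.06 (SE 0.19, adjusted p = 0.817) between control oligo and sham. Psma8, the alpha subunit of the testis, lay between 0.0527 and 0.63 scaled TPM in the 9 libraries. Psmb11, the beta subunit of the thymus, lay between 0 and 0.0665 scaled TPM. Neither was tested.

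Core and regulatory particle were compared within each library, as the mean of log2(scaled TPM + 1) over 14 core genes and over 17 regulatory particle genes. The 17 leave out subunits outside the symbol rule, such as Adrm1, and adding these was not tried. The core mean was 6.99 ± 0.21 in knockdown, 6.91 ± 0.09 in control oligo and 6.41 ± 0.02 in sham libraries (SD, n = 3 each). The regulatory particle mean was 6.81 ± 0.19 in knockdown, 6.73 ± 0.05 in control oligo and 6.24 ± 0.02 in sham libraries. Both lay above sham in every occlusion library. The difference, core minus regulatory particle, was 0.15, 0.22 and 0.18 in knockdown libraries 2, 3 and 4, 0.20, 0.06 and 0.29 in control oligo libraries 1, 2 and 3, and 0.17, 0.18 and 0.16 in sham libraries 1, 2 and 3. The groups overlapped, their means were 0.18, 0.18 and 0.17 in knockdown, control oligo and sham, and the spread was widest in control oligo. For the most abundant transcript of each gene, the difference relative to sham was -0.19 in knockdown and -0.16 in control oligo, and over coding transcripts it was 0.09 in knockdown and 0.11 in control oligo, beside 0.01 on gene sums in each. Over coding transcripts Psmd2, in the regulatory particle, was at -1.34 in knockdown and -1.13 in control oligo against sham. These values rest on the transcript assignment described further on, and their part in the difference was not tested. Of the 14 core genes, 10 rose in each occlusion group, and of the 17 regulatory particle genes 10 rose in knockdown and 11 in control oligo. Median changes were 0.47 for the core and 0.64 for the regulatory particle in knockdown, and 0.41 for the core and 0.50 for the regulatory particle in control oligo. Of the 12 kept genes outside both, 4 rose in each occlusion group. The share of all genes kept that rose was 22.7% in knockdown and 26.1% in control oligo.

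**Figure D4:**
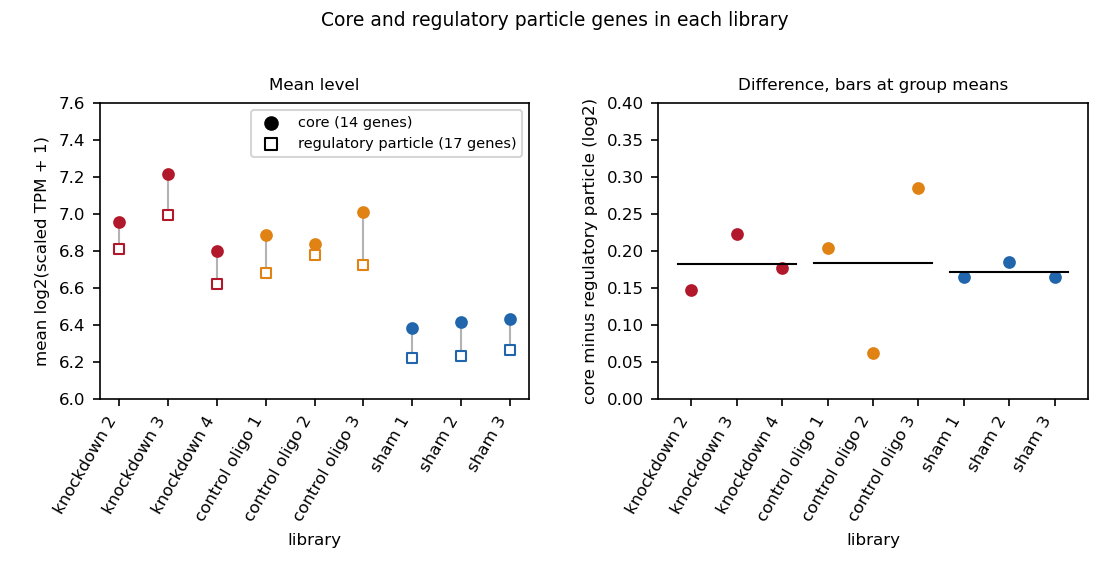
Left: mean log2(scaled TPM + 1) of 14 core genes (filled circles) and 17 regulatory particle genes (open squares) in each library. Right: their difference in each library, with bars at the group means of 0.18, 0.18 and 0.17 for knockdown, control oligo and sham. These are gene sums; for the most abundant transcripts the difference relative to sham was -0.19 in knockdown and -0.16 in control oligo.

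The 6 occlusion libraries differed among themselves. Knockdown library 3 had the highest value of all 9 libraries for 32 of the 43 genes (74.4%), beside 10.0% of all genes kept. Knockdown library 4 had the lowest value of its group for 35 of the 43, beside 39.8% of all genes kept. Across the 43 genes, the median coefficient of variation was 13.7% in knockdown, 8.78% in control oligo and 5.63% in sham libraries. The summed neutrophil markers were 61.0, 76.8 and 1201 scaled TPM in knockdown libraries 2, 3 and 4, 287, 23.3 and 323 in control oligo libraries 1, 2 and 3, and 4.76, 7.37 and 2.29 in sham libraries 1, 2 and 3. Of the 7 neutrophil markers, 5 passed the filter, Camp and Ltf did not, and 4 rose in knockdown and 5 in control oligo against sham. The summed monocyte and macrophage markers were 45.7, 45.6 and 631 in the knockdown libraries, 159.9, 36.5 and 144 in the control oligo libraries, and 15.8, 26.9 and 14.7 in the sham libraries. Of these 5 markers, Ccr2 did not pass the filter, 1 rose in knockdown, and 2 rose and 1 fell in control oligo. Summed neuron markers were 3860, 3544 and 2603 in the knockdown libraries, 3302, 3383 and 3778 in the control oligo libraries, and 3726, 3833 and 3826 in the sham libraries. Of these 6 markers, 1 rose and 2 fell in each occlusion group against sham. Summed microglia markers were 194.9, 173.2 and 339.3 in the knockdown libraries, 181.8, 172.6 and 191.3 in the control oligo libraries, and 166.0, 174.9 and 168.5 in the sham libraries. Of these 5 markers, 1 rose and 1 fell in knockdown, and 2 rose and 1 fell in control oligo. Summed endothelial markers were 78.6, 79.6 and 190.8 in knockdown, 101.6, 67.5 and 130.9 in control oligo, and 72.1, 63.7 and 77.1 in sham libraries, with 2 of the 5 higher than sham in each group and 1 lower in control oligo. Knockdown library 4 was thus highest in neutrophil, monocyte, microglia and endothelial markers, lowest in neuron markers, highest in Psme1 and Psme2 and lowest in its group for most other proteasome genes. Knockdown library 3 had the highest sums of erythroid markers at 2485 and of choroid plexus markers. The sums for the choroid plexus were 1.96, 50.1 and 1.81 in knockdown, 2.55, 2.01 and 2.85 in control oligo and 1.36, 1.25 and 1.74 in sham libraries, with 4 of the 5 markers under the filter. Summed striatum markers were 83.6 to 167 in knockdown, 138 to 177 in control oligo and 64.3 to 72.0 in sham libraries. Of these 5 markers, 3 rose and 1 fell in each occlusion group against sham. The part of cell makeup in the proteasome results was not tested. Without knockdown library 4, 32 of the 43 genes rose and Psme4 fell in the knockdown group against sham, beside 4789 of all 17080 genes that then rose (28.0%), against 3883 with it (22.7%).

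The gene sums were carried by different transcripts in different libraries for a few genes. For Psmd2, the protein-coding transcript ENSMUST00000007212 took 35.5, 37.2 and 32.7% of the gene's TPM in knockdown libraries 2, 3 and 4, 95.7, 32.4 and 26.98% in control oligo libraries 1, 2 and 3, and 91.8, 94.2 and 95.3% in sham libraries 1, 2 and 3. A transcript annotated for nonsense-mediated decay, ENSMUST00000172207, took 63.0, 60.4 and 63.1% in the knockdown libraries, 0, 65.3 and 70.8% in the control oligo libraries, and 0, 0.119 and 0% in the sham libraries. Thus 5 of the 6 occlusion libraries assigned most of the gene to the decay transcript, and control oligo library 1 and all sham libraries did not. The decay transcript differs at its second exon, chr16:20652152-20652300 on GRCm38, where the coding transcript has chr16:20652244-20652300. In the 5 libraries, the coverage assigned to that exon in the decay transcript was 0.830 to 3.02 reads per base, while the median over its later exons was 257 to 311. Coverage of the second exon of the coding transcript was 228 to 348 in the same 5 libraries. Summed over coding transcripts alone, Psmd2 was lower than in sham in the knockdown group, with a log2 change of -1.34 (limma, adjusted p = 0.000561), and at -1.13 in the control oligo group it did not pass (adjusted p = 0.0551). Both values rest on this assignment.

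**Figure D5:**
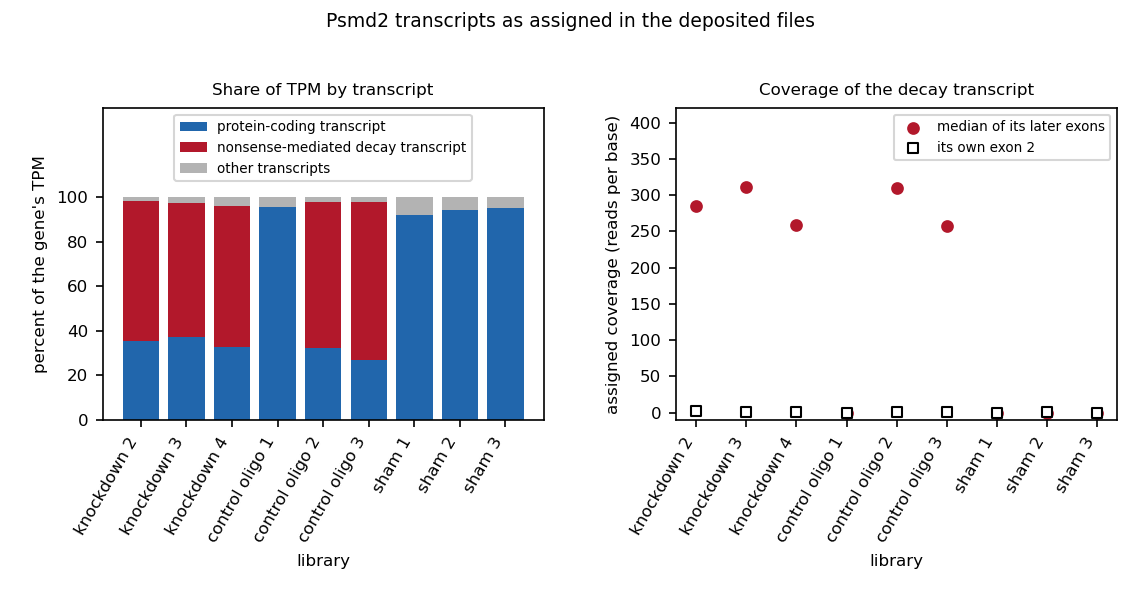
Left: share of the TPM of Psmd2 in each library that the deposited files assign to its protein-coding transcript, its nonsense-mediated decay transcript and other transcripts. Right: coverage assigned to the decay transcript at its own second exon (open squares) and as the median of its later exons (circles); the squares lie near 0 in every library.

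Retained-intron transcripts took a share of some other genes that differed between groups. For Psmc4 they took 33.6 ± 7.16% of the gene's TPM in knockdown, 51.6 ± 7.18% in control oligo and 22.5 ± 7.27% in sham libraries (SD, n = 3 each). Summed over its coding transcripts alone, Psmc4 was at 0.43 in knockdown (limma, adjusted p = 0.0663) and 0.17 in control oligo (adjusted p = 0.396) against sham, beside 0.65 in knockdown and 0.84 in control oligo on the gene sum. For Psmb10 they took 32.9 ± 0.638% in knockdown, 37.5 ± 4.004% in control oligo and 57.8 ± 1.31% in sham libraries, and over coding transcripts alone Psmb10 passed as higher than sham, at 0.64 in knockdown and 0.61 in control oligo. For Psmd5 they took 3.96 ± 2.74% in knockdown, 6.40 ± 4.92% in control oligo and 41.1 ± 31.0% in sham libraries, and over coding transcripts it passed as higher than sham in both groups, at 0.99 in knockdown. Of the 24 genes that rose in knockdown, 21 also rose over coding transcripts alone, while Psma7, Psmc4 and Psmd6 did not. Of the 25 in control oligo, 23 did, while Psmc4 and Psmd6 did not. Conversely, Psma5, Psmb10, Psmd5, Psmd11, Psmd13 and Psme1 rose in knockdown over coding transcripts but not on gene sums. The same held in control oligo for all of these but Psmd11. Psma5 is also among the genes with pseudogene copies described below. Over coding transcripts Psma7 was at 0.47 in knockdown (limma, adjusted p = 0.0576), beside 0.54 on the gene sum. Psmd6 was at 0.53 in knockdown (limma, adjusted p = 0.0765), beside 0.64, and at 0.28 in control oligo (adjusted p = 0.126), beside 0.50.

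Reads of some members may be shared with near-identical pseudogenes, which the files count as separate genes. Pseudogene copies of at least 90% identity over at least 300 bases, with a TPM above 0, were found and summed for 13 of the genes. Psmd11 had such a copy, Gm14048, at 0 TPM. Copies of other types were not summed, among them A730017L22Rik, which matches Psmd11 at 97.9% over 1501 bases. For Psma3, 3 such pseudogenes, among them Gm13835 at 100% identity over 665 bases, together had 132% of the gene's own TPM in knockdown, 137% in control oligo and 123% in sham libraries. With these added, the change of Psma3 against sham was 0.35 in knockdown and 0.29 in control oligo. For Psma5 the copies had 8.27% in knockdown, 11.5% in control oligo and 31.0% in sham libraries, and with them added its change against sham was 0.09 in knockdown and -0.01 in control oligo, beside 0.36 in knockdown and 0.22 in control oligo without them. For Psmb3 the copies had 0.277% in knockdown, 0.198% in control oligo and 8.13% in sham libraries, and with them added its change was 1.26 in knockdown and 1.14 in control oligo. For Psmb5 they had 1.73% in knockdown, 2.23% in control oligo and 12.5% in sham libraries, and its change with them was 0.22 in knockdown and 0.11 in control oligo. For Psma4 they had 0.705% in knockdown, 0.955% in control oligo and 8.50% in sham libraries, and its change with them was 0.26 in knockdown and 0.21 in control oligo, beside 0.37 in knockdown and 0.32 in control oligo without them. The levels and changes of Psma3, Psma4, Psma5 and Psmb5 are uncertain to that degree.

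Around the proteasome, 32 genes of ubiquitin activation and transfer, substrate delivery and proteasome regulation were followed as a list chosen with earlier results of these data known. None passed between knockdown and control oligo, none had an unadjusted p under 0.05, and their median change was 0.07. Against sham, 18 rose and 5 fell in the knockdown group, and 20 rose and 7 fell in the control oligo group, beside the shares of all genes given above. The median change was 0.45 in knockdown and 0.39 in control oligo, and the lowest change was -1.56 in knockdown and -1.61 in control oligo.

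Sqstm1, the receptor p62 that brings ubiquitinated cargo to autophagy, had the smallest p of the list between knockdown and control oligo, with 338, 444 and 341 scaled TPM in knockdown libraries 2, 3 and 4, 266, 352 and 274 in control oligo libraries 1, 2 and 3, and 195, 189 and 193 in sham libraries 1, 2 and 3. Knockdown library 3 was highest, the others of that group lay among the control oligo libraries, and its change between knockdown and control oligo was 0.33 (limma unadjusted p = 0.107). Zfand5, a zinc finger protein that binds the proteasome, and Uba1, the main ubiquitin-activating enzyme, had changes of 0.16 (limma unadjusted p = 0.188) and -0.16 (limma unadjusted p = 0.239) between knockdown and control oligo.

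Adrm1, a ubiquitin receptor of the regulatory particle outside the symbol rule, had 48.5, 51.4 and 33.8 scaled TPM in knockdown libraries 2, 3 and 4, 43.6, 42.0 and 34.9 in control oligo libraries 1, 2 and 3, and 13.1, 16.3 and 14.7 in sham libraries 1, 2 and 3. Every occlusion library lay far above the sham libraries, and its change was 1.52 (SE 0.18, adjusted p = 0.000535) in knockdown and 1.39 (SE 0.13, adjusted p = 0.000144) in control oligo. Stub1, a ubiquitin ligase that works with chaperones, rose by 1.02 (SE 0.15, adjusted p = 0.00151) in knockdown and 1.09 (SE 0.12, adjusted p = 0.000247) in control oligo. Zfand2a, a stress-induced partner of the proteasome, rose by 1.302 (SE 0.13, adjusted p = 0.000281) in knockdown and 1.03 (SE 0.18, adjusted p = 0.00216) in control oligo. Nploc4, a cofactor of the segregase Vcp, rose by 0.85 (SE 0.09, adjusted p = 0.000408) in knockdown and 0.74 (SE 0.14, adjusted p = 0.00282) in control oligo.

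Uba6, a second ubiquitin-activating enzyme, had 5.32, 4.81 and 4.76 scaled TPM in knockdown libraries 2, 3 and 4, 5.10, 5.38 and 3.84 in control oligo libraries 1, 2 and 3, and 17.9, 15.0 and 16.8 in sham libraries 1, 2 and 3. Its sham libraries were all far above the occlusion libraries, and its change was -1.56 (SE 0.13, adjusted p = 0.000114) in knockdown and -1.61 (SE 0.15, adjusted p = 0.000144) in control oligo. Ube3c, a ubiquitin ligase that binds the proteasome, fell as well, with -0.99 (SE 0.11, adjusted p = 0.000456) in knockdown and -1.13 (SE 0.12, adjusted p = 0.00025) in control oligo. The other genes that fell in both were Usp14, a deubiquitinase on the regulatory particle, Ngly1, a deglycosylase that activates Nfe2l1, and AI314180, the mouse gene of the proteasome-binding scaffold Ecm29. Without scaling these directions partly turned: Usp14 was at 0.14 in knockdown and 0.13 in control oligo, and Ngly1 at 0.05 in knockdown and -0.07 in control oligo, while Uba6 was at -0.91 in knockdown and -1.01 in control oligo. Nfe2l1 itself, named after its values were seen, had 27.5, 32.4 and 42.8 scaled TPM in knockdown libraries 2, 3 and 4, 24.5, 31.4 and 32.8 in control oligo libraries 1, 2 and 3, and 34.1, 40.0 and 37.5 in sham libraries 1, 2 and 3. Knockdown and sham overlapped, all control oligo libraries lay below all sham libraries, and its change was -0.14 (SE 0.17, adjusted p = 0.526) in knockdown and -0.33 (SE 0.14, adjusted p = 0.0745) in control oligo, neither past the threshold. The most abundant transcript of Nfe2l1 was only 582 bases long, and how far its gene sum follows a full coding transcript was not tested.

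Changes against sham went with gene size in some sets of genes and not in others. Over the 17 regulatory particle genes, Spearman's rho between the control oligo change and the length of the gene on the chromosome was -0.49, and over the 14 core genes it was -0.01. Over coding transcripts alone it was -0.19 for the regulatory particle and 0.04 for the core. With the length of the most abundant transcript in place of the gene, rho was -0.33 for the regulatory particle and -0.46 for the core. With the number of exons of that transcript, rho was -0.50 for the regulatory particle and -0.30 for the core. With gene length it was -0.23 over the 43 genes, -0.70 over the 32 genes around the proteasome and -0.16 over all 17080 genes. With the mean log2 level over the 9 libraries, rho was 0.59 for the core and -0.02 for the regulatory particle. It was 0.33 over the 43 genes and 0.14 over all genes kept. That mean level takes in the occlusion libraries, so a gene higher there also has a higher mean. Part of the rho with level is thus built in. These are correlations across genes within the same 6 libraries, given as descriptions, and their points share libraries and depth.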

How the data were processed

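RNA of cerebral cortex was sequenced in 9 libraries, 3 a group. Per the submitters' processing notes the reads were aligned with HISAT2 2.0 to GRCm38 (mm10) and quantified with StringTie 1.3 (1.3.4d per the file headers). The authors deposited coverage, FPKM and TPM for each of 131100 transcripts. No strand option stands in the headers, so reads of overlapping antisense genes cannot be told apart. The files hold no counts, and their TPM keeps no depth, so no count test was run and no interval from counting error is given.

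TPM was summed over the transcripts of each gene. Genes with TPM of at least 1 in at least 3 of 9 libraries were kept (17080 of 52550). TPM was divided by median-ratio factors from 16344 genes, and log2(scaled TPM + 1) was fitted with limma 3.58.1 (trend, Benjamini-Hochberg over all genes kept, threshold 0.05) on the 6 libraries of each comparison. A fold change on that scale understates the change of low genes. Scripts were tested on simulated data. The genes named were the 5 with the smallest p between knockdown and control oligo, the largest and smallest change of each role against sham, the 4 smallest p of the surrounding genes and the variants, plus those stated to be named otherwise. Some results of the surrounding genes are not reported here. The genes and lists were chosen with earlier results of these data known. Copies were searched with BLAST 2.17.0 (at least 90% identity over 300 bases). Alternatives covered scaling, unit, pseudocount, filter, transcript choice, the fit and leaving out each library.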

Additional observations from a re-analysis of the deposited data

How the results depend on the processing

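Between knockdown and control oligo, no proteasome gene was called under any of the 16 alternatives, leaving out each library included. The count of all genes called higher there, 2, was 1 without scaling, per nuclear protein-coding TPM, with deposited FPKM, with a pseudocount of 0.1, without a filter and over protein-coding transcripts only (an alternative chosen after seeing the data), 4 for the most abundant transcript, and 0 to 2 leaving out 1 library. The count lower, 1, was 3 for the most abundant transcript and 2 with all 9 libraries in one fit. Deviations of libraries with the same number correlated at -0.08 to 0.22, not all above 0.1, and no label ties the numbers, so they were not taken as pairs. With the replicate block both counts were 0. Against sham it gave 27 proteasome genes higher in knockdown and 24 in control oligo, and 3503 and 4266 of all genes, beside 3883 and 4456 without it.

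Against sham, proteasome genes called higher numbered 41 in knockdown and 42 in control oligo without scaling, and 17 to 32 in knockdown and 22 to 27 in control oligo leaving out 1 library, beside 2726 to 4789 of all genes in knockdown and 3446 to 4480 in control oligo. Called lower was 1 in knockdown for the most abundant transcript, over protein-coding transcripts (Psmd2) and without knockdown library 4 (Psme4), a range of 0 to 1, and 1 in control oligo per nuclear protein-coding TPM (Psmg2). Of the surrounding genes, those lower in knockdown numbered 1 without scaling and 3 for the most abundant transcript, and those lower in control oligo 2 without scaling, 4 for the most abundant transcript and 4 to 6 leaving out 1 library. All genes split into 9007 higher and 2143 lower in knockdown and 8990 higher and 2178 lower in control oligo without scaling. The core median was 1.18 in knockdown and 1.07 in control oligo without scaling, and in control oligo 0.28 per nuclear protein-coding TPM, 0.48 with FPKM, 0.49 for the most abundant transcript and 0.50 over coding transcripts. The regulatory particle median in knockdown was 1.35 without scaling, 0.47 per nuclear protein-coding TPM and 0.93 for the most abundant transcript. In control oligo it was 1.16, 0.36 and 0.81 under these, 0.39 over coding transcripts and 0.42 to 0.50 leaving out 1 library. Core minus regulatory particle against sham was -0.19 in knockdown and -0.16 in control oligo for the most abundant transcript. In knockdown it was 0.090 over coding transcripts, where Psmd2 was at -1.34, and -0.029 with Psmb10 added to the core.

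Signs turned for some of the named genes, not all of them near 0. On scaled gene sums, Psmc4 was at -0.19 between knockdown and control oligo. Against sham, Psme4 was at -0.28 in knockdown and Psmg2 at -0.23 in control oligo. Between knockdown and control oligo, Psmb10 was at 0.029, Psmc4 at 0.026 and Uba1 at 0.10 for the most abundant transcript, and at 0.029, 0.26 and 0.088 over coding transcripts. In knockdown against sham, without scaling, Psmb10 was at 0.68, Psme4 at 0.41 and Psmg2 at 0.46. Psmb10 was at 0.063 with FPKM and at 0.64 for the most abundant and the coding transcripts, where Psmd2 was at -1.34. Per nuclear protein-coding TPM, Psmd2 was at -0.12 and Psmd5 at -0.054. In control oligo against sham, without scaling, Psmd2 was at 0.62, Psme4 at 0.51 and Psmg2 at 0.40. Per nuclear protein-coding TPM, Psmb10 was at -0.080, Psmc6 at -0.0093 and Psmd10 at -0.074. For the most abundant transcript Psma3 was at -0.027, Psmd10 at -0.057 and Psme4 at 0.028, over coding transcripts Psma3 was at -0.059 and Psme4 at 0.036, and with FPKM Psmd2 was at 0.021. The cause of these changes was not tested.

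Leaving out 1 library, Psmb10 ran between -0.23 and 0.11 between knockdown and control oligo, Psmb10 ran between -0.11 and 0.093 in knockdown against sham, Psmd2 ran between -0.016 and 0.14 in knockdown against sham, Psmb10 ran between -0.13 and 0.20 in control oligo against sham, Psmd10 ran between -0.032 and 0.16 in control oligo against sham, Psmd2 ran between -0.095 and 0.015 in control oligo against sham, and Psme4 ran between -0.34 and 0.088 in control oligo against sham.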
